A study of Mus musculus with 8 samples.

Results

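The lysosome, the vacuolar proton pump (V-ATPase) and the autophagy machinery were followed through 44 genes in malignant peripheral nerve sheath tumours (MPNSTs) of the mouse. The genes were named as members by symbol. They include 8 cathepsins, 9 genes for other hydrolases and their activator, and 5 genes of the lysosomal membrane and of cholesterol export. The rest are 8 V-ATPase subunits, the 3 transcription factors Tfeb, Tfe3 and Mitf, and 11 autophagy genes. Each of the 44 is represented by the probe set that the array platform annotates to that symbol alone. Where there are several, the one with the highest mean is used. All 44 were measured, out of 19938 genes in all. The rule uses measured values only to choose between probe sets of a gene, by their mean. The members themselves, however, were chosen with earlier results of these data known.

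The tumours were primary MPNSTs of NPcis mice, which carry linked null alleles of Nf1 and Trp53, so all groups share that background. Bulk tumour RNA was hybridised to 8 Affymetrix arrays, 2 for each of 4 treatments of 14 hours: the combination of both drugs, PD-0325901 alone, rapamycin alone, and vehicle. PD-0325901, an inhibitor of the kinase MEK, was given orally, by gavage, in doses of 1.5 mg/kg given 2 times daily, and rapamycin, an inhibitor of the kinase complex mTORC1, at 5 mg/kg intraperitoneally; the combination used the same doses. The labels give neither the age of the mice nor whether the arrays of a group come from separate animals, so p-values cover the spread between these samples, which may be technical. In bulk tumour, fewer cells of a type and less RNA per cell cannot be told apart. Of the Schwann cell markers, Sox10 lay between 7.85 and 8.17 and S100b between 7.12 and 7.32 on the log2 scale over the 8 arrays; no detection call was used, so their presence or absence was not assessed.

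Lysosomes are acidic organelles in which hydrolases break down proteins, lipids, glycans and glycogen. The V-ATPase pumps protons into them, and autophagy delivers cytoplasmic cargo to them in double-membraned vesicles. TFEB and TFE3, and MITF in some cell types, activate many of these genes through an E-box in their promoters, known as the CLEAR element. mTORC1, the target of rapamycin, and ERK, the kinase that MEK activates, are both known to phosphorylate TFEB and hold it in the cytoplasm, and mTORC1 also inhibits the autophagy kinase ULK1.

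The core letters of the E-box, CACGTG, were searched in the promoter window of each gene, 250 bases before to 50 bases from its start, in RefSeq's table for GRCm38.p6. Matched by symbol, 37 of the 44 members had a window; Ctsb, Npc1, Atp6v0d2, Atp6v1b2, Atp6v1c1, Atp6v1h and Becn1 were not analysed here. Below are 160 bases (150 before the start and 10 from it, 5′ to 3′ on the strand of the gene) for the members that had an unadjusted p under 0.05 in a comparison of either drug over all 8 arrays and that hold the motif. Capitals mark CACGTG. The windows are chr7:142387818-142387977 (minus strand) for Ctsd, chr8:13159011-13159170 (plus) for Lamp1, chr8:3500369-3500528 (plus) for Mcoln1, chr8:105566055-105566214 (minus) for Atp6v0d1, chr11:119267813-119267972 (plus) for Gaa and chr14:47568425-47568584 (minus) for Atg14.
Ctsd: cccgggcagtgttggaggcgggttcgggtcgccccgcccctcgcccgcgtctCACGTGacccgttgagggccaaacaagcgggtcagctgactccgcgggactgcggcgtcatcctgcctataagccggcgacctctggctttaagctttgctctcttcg
Lamp1: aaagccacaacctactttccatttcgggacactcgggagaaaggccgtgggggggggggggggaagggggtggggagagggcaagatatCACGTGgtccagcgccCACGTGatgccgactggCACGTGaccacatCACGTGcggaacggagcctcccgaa
Mcoln1: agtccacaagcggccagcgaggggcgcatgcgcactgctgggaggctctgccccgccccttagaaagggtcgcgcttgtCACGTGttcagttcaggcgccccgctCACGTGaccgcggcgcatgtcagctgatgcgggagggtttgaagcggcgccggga
Atp6v0d1: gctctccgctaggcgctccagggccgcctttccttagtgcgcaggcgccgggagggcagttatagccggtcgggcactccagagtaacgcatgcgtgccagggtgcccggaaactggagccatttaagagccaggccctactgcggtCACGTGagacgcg
Gaa: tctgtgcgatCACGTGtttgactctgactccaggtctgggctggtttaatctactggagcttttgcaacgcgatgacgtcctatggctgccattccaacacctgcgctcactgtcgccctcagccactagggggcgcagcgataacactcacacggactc
Atg14: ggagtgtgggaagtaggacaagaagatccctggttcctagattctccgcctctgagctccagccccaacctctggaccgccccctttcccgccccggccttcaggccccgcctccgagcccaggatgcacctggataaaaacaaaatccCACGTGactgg

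In the shown stretches Lamp1, a membrane glycoprotein of the lysosome, holds 4 copies of CACGTG, and Mcoln1, a calcium channel of the lysosomal membrane, holds 2. Ctsd, Atp6v0d1, Gaa and Atg14 hold 1 each. Over whole windows, 15 of 37 members (40.5%) held CACGTG, against 9.5% of the 15614 measured genes with a window and 8.09% of all 27025 genes with one. The longer form TCACGTGA, which contains the shorter, stood in 6 of 37 members (16.2%), against 1.52% of measured genes. Both motifs read the same on both strands. By role, CACGTG was present in 4 of 7 cathepsins with a window, 4 of 9 genes for hydrolases and their activator, and 2 of 4 membrane genes. It stood in 2 of 4 V-ATPase subunits, 3 of 10 autophagy genes and 0 of 3 of the MiT/TFE factors themselves. The windows of Ctss, Lipa, Neu1, Gusb, Ulk1 and Wipi1, which also had an unadjusted p under 0.05 for a drug, hold none. A match is a description of the letters in this window and not evidence of binding.

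Values are the deposited log2 values, so a difference of 1 is a doubling. The distance between a gene's lowest and highest array had a median of 0.71 over the 44 members. It was at most 0.96 for 40 of them and as small as 0.37 for Lamp2. The 4 others were Atp6v0d2 with 5.23, Ctsk with 3.93, Atg9a with 1.11 and Atp6v1b2 with 1.03. Rapamycin array 1 was the highest array for 13 of the 44 members, and for 13.9% of all genes. Vehicle array 2 was the highest for 0 members and the lowest for 13, against 12.1% and 11.5% of all genes. Rapamycin array 2 was the lowest for 11 members, against 14.9% of all genes. The 2 rapamycin arrays, and likewise the 2 vehicle arrays, thus stood far apart for many members, and the heatmap of all members shows this as columns of unlike colour.

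**Figure D1:**
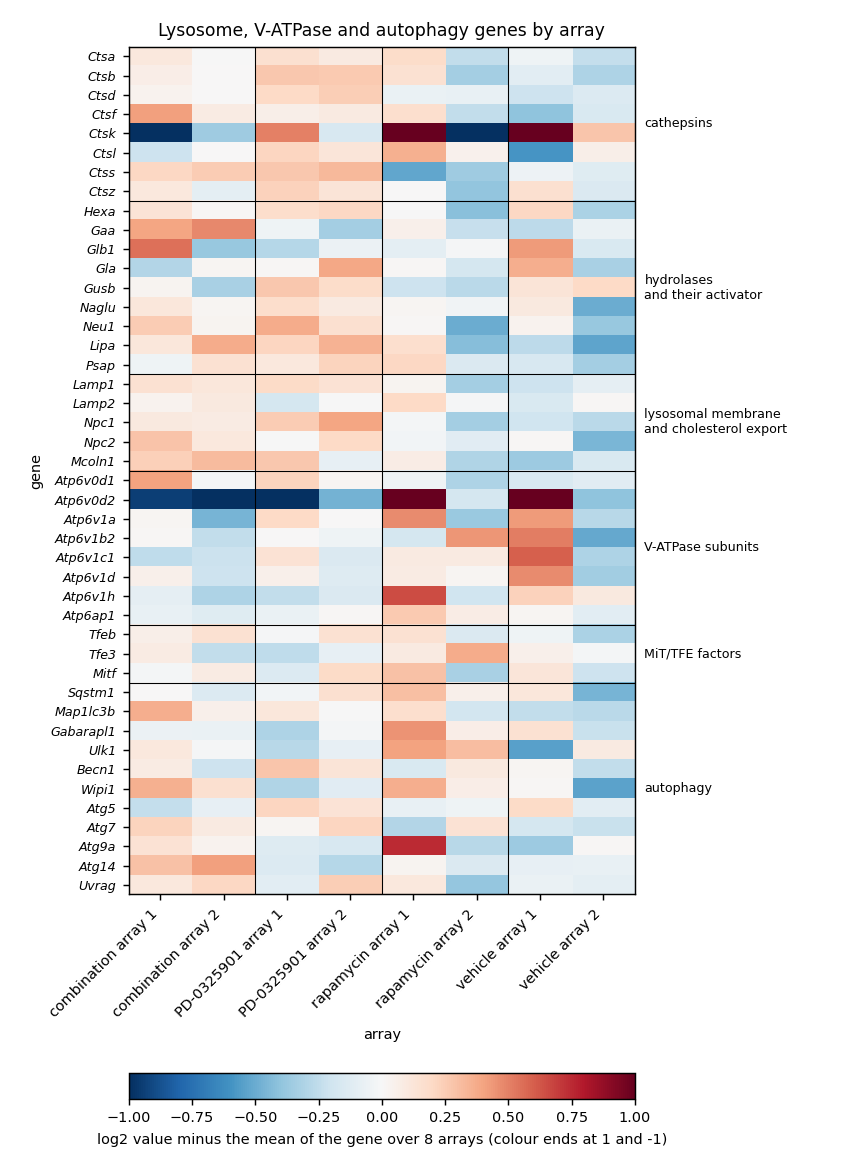
Log2 value of each of the 44 genes (rows, by role) on each of the 8 arrays (columns, by treatment), as the difference from the gene's mean over the arrays; colours end at 1 and -1. Atp6v0d2 and Ctsk have the widest spread, 5.23 and 3.93 between their lowest and highest array, and rapamycin array 1 and array 2 differ in colour for many enzymes.

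The first question was how the members differ when MEK is inhibited, taken over the settings with and without rapamycin. The PD-0325901 effect is the mean of PD-0325901 minus vehicle and of the combination minus rapamycin, fitted in limma over all 8 arrays. No member passed an adjusted p of 0.05: limma called 0 of 44 members and 0 of 19938 genes, and the smallest adjusted p of a member was 0.141, for Ctss. At an unadjusted p under 0.05, 8 of 44 members (18.2%) were higher and 0 lower with PD-0325901, against 5.47% and 4.14% of all genes. All 4 arrays with the drug lay above all 4 without it for 5 members, and below for 1, as they did for 3.34% and 2.39% of all genes. The median difference was 0.14 over the 44 members, with 30 above 0, and -0.01 over all genes; the members' median was 0.08 without rapamycin array 2 and 0.21 without rapamycin array 1. The 8 were the proteases Ctss and Ctsd, the hydrolases Lipa and Neu1, the membrane genes Lamp1, Npc1 and Mcoln1, and the V-ATPase subunit Atp6v0d1, while 7 of the 8 V-ATPase subunits had a difference below 0.

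Among the cathepsins, the lysosomal proteases, 7 of 8 had a difference above 0, with a median of 0.21. Ctss, a cysteine protease that trims the invariant chain in antigen-presenting cells, had 11.78 and 11.83 on the combination arrays and 11.85 and 11.90 on the PD-0325901 arrays, against 11.06 and 11.22 on the rapamycin arrays and 11.53 and 11.46 on the vehicle arrays. All 4 arrays with PD-0325901 lay above all 4 without it, and the rapamycin arrays were the lowest. The difference was 0.52 (SE 0.071, limma adjusted p = 0.141, n = 4 and 4). Ctsd, the major aspartic protease of the lysosome, had 12.60 and 12.56 on the combination arrays and 12.76 and 12.81 on the PD-0325901 arrays, against 12.50 and 12.49 on the rapamycin arrays and 12.36 and 12.43 on the vehicle arrays. Its groups did not overlap either, and the arrays with PD-0325901 alone were the highest. The difference was 0.24 (SE 0.063, adjusted p = 0.320). The other cathepsins ranged from -0.57 for Ctsk to 0.32 for Ctsf; Ctsb had 0.30 and Ctsl 0.07. The direction of Ctsk and of Ctsl turned on single arrays: Ctsk had 0.32 without rapamycin array 1 and -1.46 without rapamycin array 2, and Ctsl had -0.09 without vehicle array 1 and 0.23 without vehicle array 2.

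Of the 9 genes for hydrolases and their activator, 8 had a difference above 0, with a median of 0.22. Lipa, the acid lipase that frees cholesterol and fatty acids from lipoproteins, had 10.96 and 11.22 on the combination arrays and 11.05 and 11.19 on the PD-0325901 arrays, against 11.01 and 10.41 on the rapamycin arrays and 10.58 and 10.31 on the vehicle arrays. Rapamycin array 1 reached the level of the arrays with PD-0325901, so the groups overlapped. The difference was 0.53 (SE 0.16, adjusted p = 0.378). Neu1, the lysosomal sialidase, had 9.30 and 9.07 on the combination arrays and 9.41 and 9.20 on the PD-0325901 arrays, against 9.05 and 8.55 on the rapamycin arrays and 9.08 and 8.66 on the vehicle arrays. Here vehicle array 1 lay just above the lowest array with the drug. The difference was 0.41 (SE 0.16, adjusted p = 0.497). Hexa, a subunit of beta-hexosaminidase, had 0.27, Gaa, the acid alpha-glucosidase that degrades glycogen, 0.25, and Psap, the precursor of the saposin activators, 0.22; Glb1, the acid beta-galactosidase, had -0.08, and 0.15 without combination array 2.

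In the lysosomal membrane and cholesterol export group, 4 of 5 genes had a difference above 0, with a median of 0.30. Npc1, which exports cholesterol from the lysosome, had 11.14 and 11.12 on the combination arrays and 11.30 and 11.44 on the PD-0325901 arrays, against 11.03 and 10.71 on the rapamycin arrays and 10.85 and 10.78 on the vehicle arrays. The groups did not overlap, and the arrays with PD-0325901 alone were the highest. The difference was 0.41 (SE 0.095, adjusted p = 0.270). Lamp1 had 12.36 and 12.32 on the combination arrays and 12.40 and 12.35 on the PD-0325901 arrays, against 12.24 and 11.87 on the rapamycin arrays and 11.999 and 12.12 on the vehicle arrays, again with no overlap. Its difference was 0.30 (SE 0.10, adjusted p = 0.428). Mcoln1 had 11.41 and 11.49 on the combination arrays and 11.45 and 11.09 on the PD-0325901 arrays, against 11.25 and 10.87 on the rapamycin arrays and 10.81 and 11.02 on the vehicle arrays; rapamycin array 1 lay above PD-0325901 array 2. Its difference was 0.37 (SE 0.13, adjusted p = 0.445). Npc2, the soluble partner of Npc1, had 0.29, and Lamp2, the other major membrane glycoprotein, had -0.02.

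**Figure D2:**
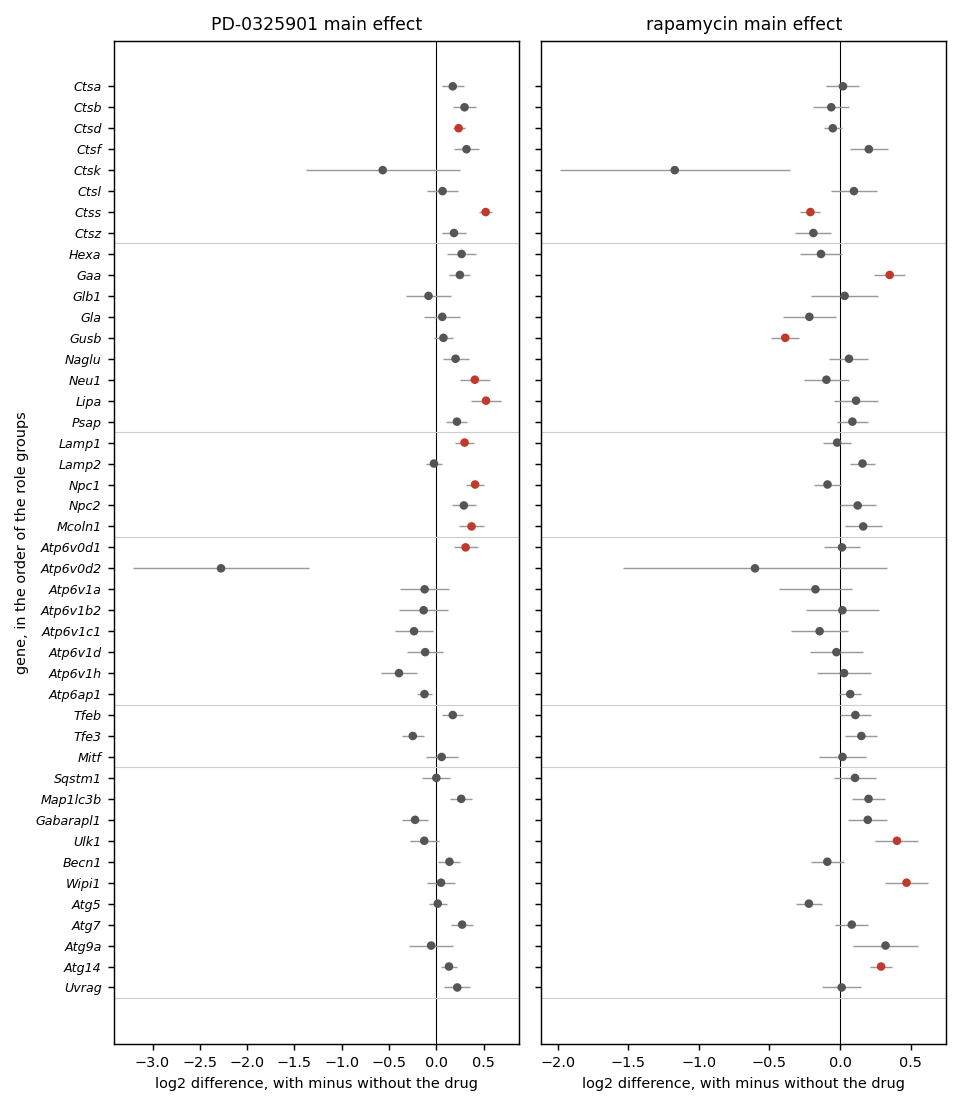
Log2 difference of each member with minus without PD-0325901 (left) and with minus without rapamycin (right), over all 8 arrays; points are the fitted differences, bars their standard errors, and red points have an unadjusted p under 0.05. With PD-0325901 8 members are red and all lie above 0; with rapamycin 4 lie above and 2 below.

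Over these 22 enzyme and membrane genes together, 19 had a PD-0325901 difference above 0, with a median of 0.24; leaving out each array in turn moved that median between 0.18 and 0.32. Their score, the mean over genes of the log2 value minus the gene's mean over 8 arrays, was 0.076 and 0.045 on the combination arrays and 0.156 and 0.134 on the PD-0325901 arrays, against 0.093 and -0.324 on the rapamycin arrays and 0.006 and -0.187 on the vehicle arrays. Rapamycin array 1 lay among the arrays with PD-0325901. A list of 30 other lysosomal enzymes was also chosen with earlier results of these data known and measured on the same arrays. It is therefore not independent support. In this list 24 had a difference above 0, with a median of 0.28. An unadjusted p under 0.05 was reached by 10 (33.3%), all higher, with 0 past the adjusted threshold. The list included Ctsh with 0.88 (SE 0.12, adjusted p = 0.141), Ctso with 0.62, the phospholipase Pla2g15 with 0.78 and the alpha-mannosidase Man2b1 with 0.60. That count was 17 without rapamycin array 1. Of 28 other membrane, sorting and storage genes 18 had a difference above 0, with a median of 0.08, and 7 had an unadjusted p under 0.05, all higher, or 4 without rapamycin array 2 or PD-0325901 array 1.

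Shares of all genes can change in a refit too and are not given here, so the refit counts describe the members only. The count of 8 members with an unadjusted p under 0.05 moved with single arrays. It was 15 when rapamycin array 1 was left out, 5 when vehicle array 2 or PD-0325901 array 2 was, and 4 when PD-0325901 array 1 or combination array 1 was. The count of 0 lower members was 3 when vehicle array 2 and 4 when rapamycin array 2 was left out. In a fit of only 2 groups (4 arrays with the drug against 4 without), 12 members were higher and 2 lower, Atp6v0d2 and Atp6v1h, and 22 genes but 0 members passed the adjusted threshold.

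Macrophages are rich in lysosomes, and most of their markers also had higher mean values with PD-0325901. Of 15 macrophage markers, 13 had a PD-0325901 difference above 0, the median was 0.37 and 8 had an unadjusted p under 0.05, all higher. Among the 8 were Fcgr1 with 0.84, Adgre1 with 0.63, Csf1r with 0.54 and Mertk with 0.90. Itgam and Msr1 had differences below 0. Msr1 had 9.70 and 8.29 on the combination arrays and 9.17 and 9.55 on the PD-0325901 arrays. It had 9.77 and 10.13 on the rapamycin arrays and 10.305 and 9.42 on the vehicle arrays. The macrophage marker score was 0.322 and -0.195 on the combination arrays and 0.244 and 0.306 on the PD-0325901 arrays, against -0.230 and -0.143 on the rapamycin arrays and -0.009 and -0.295 on the vehicle arrays. Combination array 2 thus sat within the range of the arrays without PD-0325901 for macrophage markers. For the 22 enzyme and membrane members both combination arrays, at 0.076 and 0.045, lay below the 0.093 of rapamycin array 1. The macrophage score of rapamycin array 1 was -0.230. The count of 8 was 10 without vehicle array 1 or combination array 2, 9 without rapamycin array 2, and 4 on leaving out any of the other 5 arrays; the median ran from 0.28 without combination array 1 to 0.51 without vehicle array 1. T and NK cell markers had a median of 0.89, with 11 of 11 above 0, and endothelial markers a median of -0.47, with 1 of 10 above 0. Neither score separated the arrays by drug. The T and NK cell score was -0.01 on PD-0325901 array 1 and 0.0003 on vehicle array 1. The endothelial score was 0.111 on PD-0325901 array 2 and -0.176 on vehicle array 2. The part of these cell types in the lysosomal values was not tested. Of 19 genes listed as ERK output, 18 had a difference below 0 with PD-0325901, with a median of -0.36; Spred1, a feedback inhibitor of the pathway, had -0.54 (SE 0.067, adjusted p = 0.141).

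**Figure D3:**
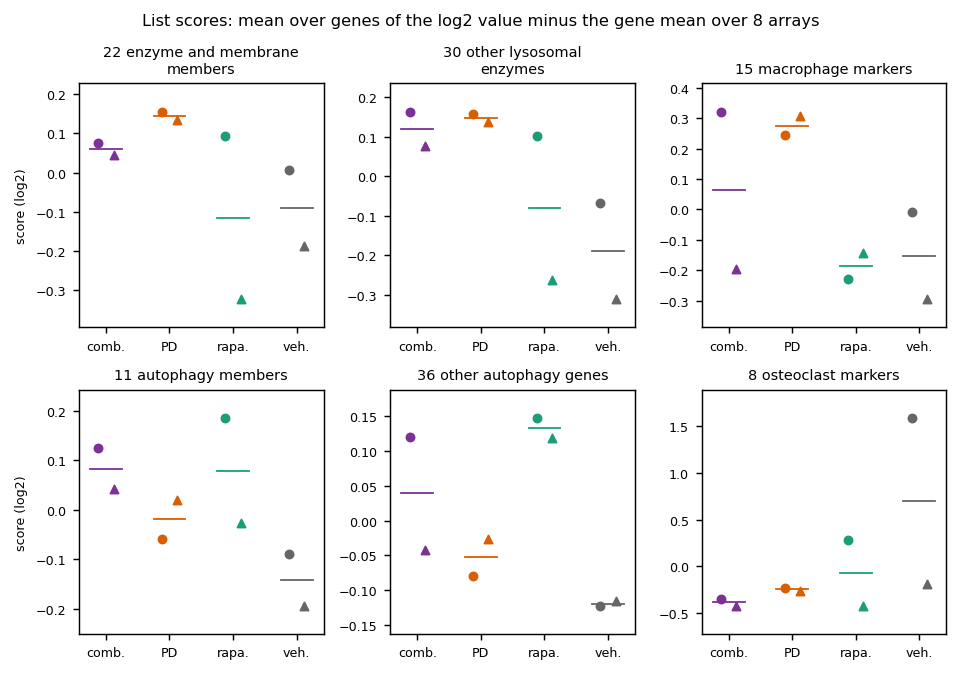
Score of 6 gene lists on each array, by treatment (comb., combination; PD, PD-0325901; rapa., rapamycin; veh., vehicle); circles are array 1, triangles array 2, lines the mean of both. The scores of enzyme and membrane members, of other lysosomal enzymes and of macrophage markers are high on both PD-0325901 arrays, and the score of other autophagy genes is highest on both rapamycin arrays and combination array 1.

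Most V-ATPase subunits had lower values with PD-0325901: 1 of 8 had a PD-0325901 difference above 0, and the median was -0.13. The exception was Atp6v0d1, the widely used d subunit of the membrane sector, which had 11.16 and 10.74 on the combination arrays and 10.97 and 10.77 on the PD-0325901 arrays, against 10.71 and 10.44 on the rapamycin arrays and 10.61 and 10.64 on the vehicle arrays. All arrays with PD-0325901 lay above all without it, by a narrow margin. The difference was 0.31 (SE 0.13, adjusted p = 0.515). Its paralogue Atp6v0d2, used in osteoclasts and some macrophages, went the other way: 7.36 and 6.74 on the combination arrays and 6.72 and 7.83 on the PD-0325901 arrays, against 9.77 and 8.12 on the rapamycin arrays and 11.95 and 7.90 on the vehicle arrays. All arrays with PD-0325901 lay below all without it, and the arrays without it were themselves far apart. The difference was -2.28 (SE 0.93, adjusted p = 0.523), and it was -1.26 (SE 0.53, adjusted p = 0.600) without vehicle array 1.

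Vehicle array 1 stood apart for this group. It was the highest of the 8 arrays for 4 of 8 V-ATPase members, Atp6v0d2, Atp6v1b2, Atp6v1c1 and Atp6v1d, and for Ctsk, the collagen-degrading cathepsin of osteoclasts, with 12.34 against 8.40 to 11.97 elsewhere. It was also the highest for all 8 osteoclast markers. Acp5, the tartrate-resistant acid phosphatase of osteoclasts, was at 12.46 there and at 9.11 to 11.06 on the others. Ocstamp and Dcstamp, which mediate fusion of osteoclast precursors, were at 10.78 and 9.16 there and at most at 8.48 and 7.14 on the others. The osteoclast marker score was 1.59 on vehicle array 1 and -0.42 to 0.28 on the other 7 arrays, and the V-ATPase member score 0.72 and -0.39 to 0.35. The part of osteoclast-like cells in these values was not tested.

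Without vehicle array 1, 4 of 8 V-ATPase members had a PD-0325901 difference above 0 and the median was 0.02, so the direction of the group rested on that array; the median of the 8 osteoclast markers was -0.17 without it and -0.69 with it. Among 18 other V-ATPase subunits, 10 had a difference above 0, with a median of 0.04; 0 were higher and 1, Atp6v0a2, was lower at an unadjusted p under 0.05 (-0.30, SE 0.094, adjusted p = 0.395).

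**Figure D4:**
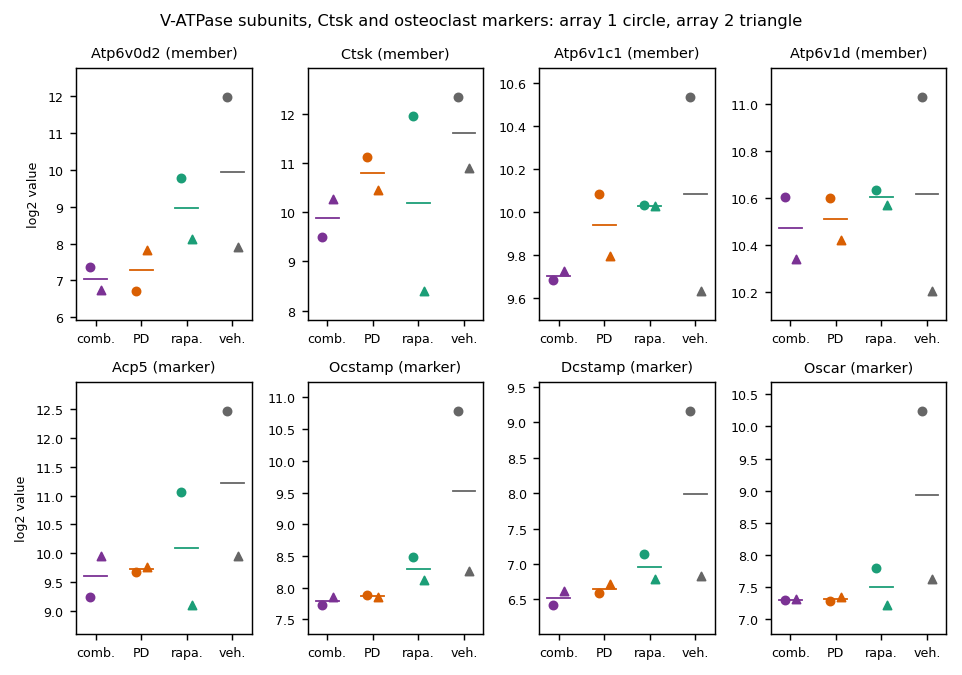
Log2 values of 4 members (upper row) and 4 osteoclast markers (lower row) on each array, by treatment (comb., combination; PD, PD-0325901; rapa., rapamycin; veh., vehicle); circles are array 1, triangles array 2, lines the mean of both. Vehicle array 1 is the highest array in all 8 panels, with 11.95 for Atp6v0d2 and 12.46 for Acp5.

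The 3 MiT/TFE factors had small PD-0325901 differences: 0.17 for Tfeb, 0.06 for Mitf and -0.25 for Tfe3, none with an unadjusted p under 0.05. Among the 11 autophagy members 8 had a difference above 0, but the median was 0.05 and 0 had an unadjusted p under 0.05; the range ran from -0.22 for Gabarapl1 to 0.27 for Atg7, the enzyme that activates ATG8-family proteins. Another 36 autophagy genes had a median of 0.02, with 20 above 0. Genes of nutrient sensing at the lysosome had a median of 0.07, with 11 of 15 above 0 and 3 with an unadjusted p under 0.05, all higher: Slc38a9, an amino acid sensor upstream of mTORC1, had 0.51 (SE 0.091, adjusted p = 0.183), Flcn, a regulator of the Rag GTPases, 0.43 and Lamtor2, a Ragulator subunit, 0.22.

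Members with CACGTG in their window had a median PD-0325901 difference of 0.20 (13 of 15 above 0), and those without it 0.07 (14 of 22). Over all measured genes the medians were -0.02 with the motif and -0.01 without it. For rapamycin the members' medians were 0.03 with and 0.10 without the motif. The split was not made within role groups, which differ in how often they hold the motif. Members without a window, among them the V-ATPase subunits Atp6v0d2, Atp6v1b2, Atp6v1c1 and Atp6v1h, are on neither side. Whether the motif bears on these differences was not tested.

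The rapamycin effect, the mean of rapamycin minus vehicle and of the combination minus PD-0325901, had its highest values in the autophagy genes. Again limma called 0 of 44 members and 0 of 19938 genes, and the smallest adjusted p of a member was 0.752, for Gusb. At an unadjusted p under 0.05, 4 members were higher (9.09%) and 2 lower (4.55%), against 3.15% and 2.4% of all genes. The 4 arrays with rapamycin lay above all 4 without it for 1 member and below for 1, as they did for 1.41% and 1.94% of all genes. The median over the 44 members was 0.02, with 27 above 0, and over all genes -0.01; the members' median was -0.03 without rapamycin array 1 and 0.10 without vehicle array 1. Of the 11 autophagy members 9 had a difference above 0, with a median of 0.20, and 3 of the 4 higher members were among them. That median was 0.10 without rapamycin array 1 or vehicle array 2 and 0.29 without rapamycin array 2.

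Ulk1, the kinase that starts autophagy, had 10.16 and 10.05 on the combination arrays and 10.45 and 10.36 on the rapamycin arrays, against 9.78 and 9.98 on the PD-0325901 arrays and 9.51 and 10.15 on the vehicle arrays. Both rapamycin arrays were the highest of the 8, but vehicle array 2 lay between the combination arrays. The difference was 0.40 (SE 0.15, adjusted p = 0.864), and 0.24 without vehicle array 1. Wipi1, which binds phosphatidylinositol 3-phosphate on forming autophagosomes, had 10.46 and 10.26 on the combination arrays and 10.46 and 10.16 on the rapamycin arrays, against 9.80 and 9.99 on the PD-0325901 arrays and 10.11 and 9.56 on the vehicle arrays. All 4 arrays with rapamycin lay above all 4 without it. The difference was 0.47 (SE 0.15, adjusted p = 0.828).

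Atg14, the subunit that directs the PI3-kinase complex to autophagosome formation, had 8.96 and 9.08 on the combination arrays and 8.70 and 8.53 on the rapamycin arrays, against 8.53 and 8.38 on the PD-0325901 arrays and 8.59 and 8.60 on the vehicle arrays. It was high on the combination arrays, whereas the rapamycin arrays lay on either side of the vehicle arrays. The difference was 0.29 (SE 0.080, adjusted p = 0.756). The other autophagy members ranged from -0.22 for Atg5 to 0.32 for Atg9a, a membrane protein whose value on rapamycin array 1, 10.28, was far above its 9.17 to 9.68 elsewhere; without that array the difference was 0.07. Map1lc3b and Gabarapl1, ATG8-family proteins that coat autophagosomes, had 0.20 each, and 0.11 and 0.10 without rapamycin array 1, and Sqstm1, the cargo receptor p62, had 0.11.

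A list of 36 other autophagy genes was also chosen with earlier results of these data known and measured on the same arrays. It is therefore not independent support. In this list 30 had a rapamycin difference above 0, with a median of 0.14. An unadjusted p under 0.05 was reached by 10 (27.8%), all higher, with 0 past the adjusted threshold. Among them were Calcoco1 with 0.57 (SE 0.13, adjusted p = 0.752), the WIPI-family gene Wdr45 with 0.49, Zfyve1 with 0.40 and the cargo receptor Nbr1 with 0.30. The count of 10 was 6 without PD-0325901 array 1. The score of this list was 0.120 and -0.042 on the combination arrays and 0.147 and 0.119 on the rapamycin arrays, against -0.079 and -0.026 on the PD-0325901 arrays and -0.122 and -0.116 on the vehicle arrays. Combination array 2 was the array with rapamycin that lay within the range of those without it.

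Outside autophagy, 2 members stood lower with rapamycin at an unadjusted p under 0.05. Gusb, the beta-glucuronidase, had 10.18 and 9.82 on the combination arrays and 9.94 and 9.88 on the rapamycin arrays, against 10.42 and 10.33 on the PD-0325901 arrays and 10.28 and 10.35 on the vehicle arrays. The groups did not overlap. The difference was -0.39 (SE 0.098, adjusted p = 0.752). Ctss, with the values given above, had -0.21 (SE 0.071, adjusted p = 0.844), and both rapamycin arrays lay below the other 6, as for 3.96% of all genes. Gaa had 0.35 (SE 0.11, adjusted p = 0.820) and is described with the combination. The 22 enzyme and membrane members had a median of 0.00, with 11 above 0; the 30 other lysosomal enzymes had a median of 0.04, and the 3 MiT/TFE factors lay between 0.02 and 0.15. V-ATPase members had a median of -0.01, with 4 of 8 above 0; without vehicle array 1 it was 0.09, with 8 of 8 above 0, and without vehicle array 2 it was -0.24, with 2 of 8 above 0. Macrophage markers had a median of -0.11, with 2 of 15 above 0. Without vehicle array 1 their median was -0.009, with 6 of 15 above 0.

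These counts also moved with single arrays, again given without the shares of all genes in each refit. The 4 higher members were 1 on leaving out rapamycin array 1, and 2 on leaving out any array of the PD-0325901 or combination groups or in the fit of only 2 groups. The 2 lower members were 6 on leaving out vehicle array 2, and 1 on leaving out vehicle array 1, combination array 1 or either of the PD-0325901 arrays.

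**Figure D5:**
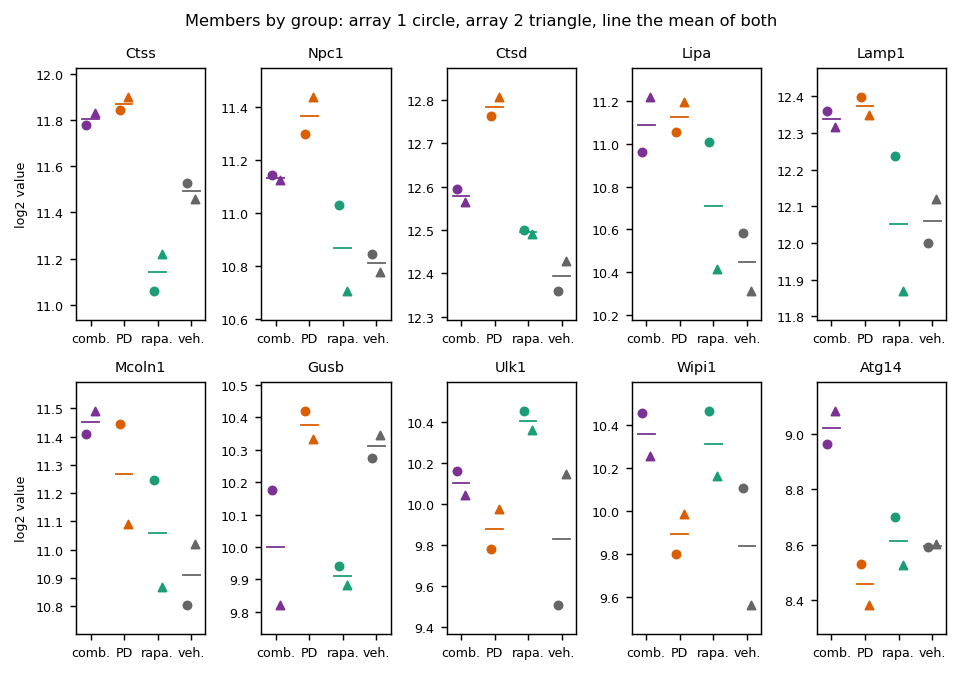
Log2 values of 10 members on each array, by treatment (comb., combination; PD, PD-0325901; rapa., rapamycin; veh., vehicle); circles are array 1, triangles array 2, lines the mean of both. Ctss, Npc1, Ctsd and Lamp1 are higher on all 4 arrays with PD-0325901 than on all 4 without it, Wipi1 is higher and Gusb lower on all 4 arrays with rapamycin, and Atg14 is highest on both combination arrays.

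Set against vehicle in groups of 2 arrays, each drug and the combination gave 0 called genes in limma, and an exact permutation test of 2 against 2 arrays cannot go below 0.333. These comparisons share the vehicle arrays. For the combination, 7 members were higher and 0 lower at an unadjusted p under 0.05 (15.9% higher, against 5.08% of all genes), with a median of 0.19 over the 44. They were Lipa with 0.64 (SE 0.22), Gaa with 0.60 (SE 0.16), Mcoln1 with 0.54 (SE 0.19), Ctsf with 0.52 (SE 0.19), Map1lc3b with 0.47 (SE 0.16), Atg14 with 0.43 (SE 0.11) and Ctss with 0.31 (SE 0.10). The smallest adjusted p among them was 0.413, for Gaa. Map1lc3b has a second probe set, which gave 0.46. The 7 higher members were 4 without combination array 1, the 0 lower members were 4 without vehicle array 2, and the median ran from 0.12 without vehicle array 2 to 0.26 without vehicle array 1.

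For PD-0325901 alone, 6 members were higher and 0 lower at an unadjusted p under 0.05 (13.6% higher, against 3.47% of all genes), with a median of 0.18. They were Lipa with 0.68 (SE 0.22), Npc1 with 0.56 (SE 0.13), Ctsb with 0.47 (SE 0.18), Psap with 0.42 (SE 0.16), Ctsd with 0.39 (SE 0.089) and Ctss with 0.38 (SE 0.10), the smallest adjusted p being 0.561, for Ctsd. The 6 higher members were 3 without PD-0325901 array 1 and 2 without PD-0325901 array 2, the 0 lower members were 3 without vehicle array 2, and the median ran from 0.08 without vehicle array 2 to 0.31 without vehicle array 1.

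For rapamycin alone, Ulk1 was higher with 0.58 (SE 0.22), and Gusb with -0.40 (SE 0.14) and Ctss with -0.35 (SE 0.10) were lower, which is 2.27% higher and 4.55% lower, against 2.77% and 2.15% of all genes. The median was 0.09 over the members and -0.02 over all genes. It turned to -0.06 without rapamycin array 1 and was 0.22 without rapamycin array 2. Leaving out rapamycin array 2 made the 1 higher member 6, leaving out vehicle array 1 or 2 made it 3 or 2, and leaving out any of the other 5 arrays made it 0. The 2 lower members were 0 without vehicle array 1 and 1 when either of the rapamycin arrays was left out. Ulk1 had 0.26 without vehicle array 1 and 0.90 without vehicle array 2.

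Between the combination and rapamycin alone, 3 members were higher and 0 lower at an unadjusted p under 0.05 (6.82% higher, against 3.95% of all genes higher and 2.71% lower): Ctss with 0.67 (SE 0.10, adjusted p = 0.573), Gaa with 0.53 and Atg14 with 0.41. The 3 higher members were 11 without rapamycin array 1, and the 0 lower members were 4 without rapamycin array 2. The median of this comparison, 0.08, was 0.20 without rapamycin array 1 and -0.02 without rapamycin array 2. Between the combination and PD-0325901 alone, Gaa with 0.63 (SE 0.16) and Atg14 with 0.56 (SE 0.11) were higher and Gusb with -0.38 and Atg5, part of the conjugation complex for ATG8 proteins, with -0.34 lower, which is 4.55% in each direction, against 1.74% and 1.27% of all genes. The 2 lower members were 1 or 0 whichever array was left out, and Gusb ran from -0.55 without combination array 1 to -0.20 without combination array 2.

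Gaa and Atg14 were the members for which both combination arrays lay above the other 6 arrays, as they did for 3.39% of all genes. Gaa had 11.79 and 11.88 on the combination arrays and 11.36 and 11.06 on the PD-0325901 arrays, with 11.45 and 11.17 on the rapamycin arrays and 11.14 and 11.33 on the vehicle arrays. PD-0325901 array 1 and rapamycin array 1 lay above both vehicle arrays, rapamycin array 2 between them and PD-0325901 array 2 below both. Both PD-0325901 arrays lay above the other 6 for Becn1, Ctsb, Ctsd, Ctss and Npc1, as for 2.93% of all genes, and both rapamycin arrays for Atp6ap1, Tfe3 and Ulk1, as for 3.01%. Both vehicle arrays lay below the other 6 for Ctsd, Map1lc3b and Psap, as for 4.04% of all genes.

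The interaction, the effect of both drugs together minus the sum of each alone, called 0 of 19938 genes in limma, with every member at an adjusted p of 0.9999. At an unadjusted p under 0.05, Atg14 had 0.55 (SE 0.16), Gaa 0.56 (SE 0.22) and Ctsd -0.31 (SE 0.13), which is 4.55% of members above 0 and 2.27% below, against 1.03% and 1.14% of all genes. The median over the 44 members was -0.09, and it ran from -0.27 without vehicle array 1 to 0.042 without rapamycin array 1.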

How the data were processed

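The values are log2 expression per probe set and array as deposited by the authors. The unit was read from the values (3.36 to 14.36). How the authors corrected, normalized and summarised the scans is not given in the sources used here. Per the labels' protocols, Trizol and RNeasy were used for the RNA, which was amplified by a NuGEN Applause kit and carried biotin. Groups and array numbers come from the sample titles. Of 35512 probe sets, 21789 are annotated to 1 symbol; no filter on low values was applied. Array medians were 7.79 to 7.90, and arrays correlated at 0.961 to 0.986 within and 0.963 to 0.985 between groups. The number of arrays limits the precision.

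A model of 4 group means was fitted in limma 3.58.1 (lmFit and eBayes, R 4.3.3, two-sided, 4 residual and 1.98 prior degrees of freedom) and tested on simulated data. P-values were adjusted by Benjamini-Hochberg over 19938 genes, with a threshold of 0.05. Counts at an unadjusted p under 0.05 are descriptions, and for refits they stand without the share of all genes. The members and all lists were chosen with earlier results of these data known. Values are given for members with an unadjusted p under 0.05 or arrays that do not overlap, and for up to 4 genes per other list. The alternatives tried were quantile normalization or centring on array medians, leaving out genes under the median level, eBayes with trend and robust options, averaging a gene's probe sets, the array number as a block, a threshold of 0.1, fits of the compared groups alone, and leaving out each array, where a lone array is assumed to vary like the other groups.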

Additional observations from a re-analysis of the deposited data

Results flagged for a closer look

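For 4 members the effect of a drug ran in opposite directions without and with the other drug, with no overlap of the arrays in either setting. They were Ctsl and Atg14 for the PD-0325901 effect, and Ctsd and Atp6ap1 for the rapamycin effect. Among all genes the PD-0325901 effect did so for 622 (3.12%) and the rapamycin effect for 630 (3.16%). The 4 members pool both drugs and are not to be set against either share. The interaction term of limma tested each difference, and none passed after adjustment.

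Ctsl, a cysteine cathepsin, had 12.36 and 12.27 on the PD-0325901 arrays, against 11.55 and 12.20 on the vehicle arrays, but 11.94 and 12.14 on the combination arrays, against 12.50 and 12.19 on the rapamycin arrays. Its PD-0325901 effects were 0.44 and -0.30, and the interaction -0.738 (SE 0.33, limma adjusted p = 0.9999). Atg14 had a PD-0325901 effect of -0.14 without rapamycin and 0.41 with it, and an interaction of 0.546 (SE 0.16, adjusted p = 0.9999). Ctsd had a rapamycin effect of 0.10 without PD-0325901 and -0.21 with it, and an interaction of -0.308 (SE 0.13, adjusted p = 0.9999). Atp6ap1, an accessory subunit of the V-ATPase, had 11.67 and 11.48 on the rapamycin arrays, against 11.43 and 11.30 on the vehicle arrays, but 11.34 and 11.29 on the combination arrays, against 11.34 and 11.42 on the PD-0325901 arrays. The separation in that setting was narrow, with combination array 1 at 11.337 and PD-0325901 array 1 at 11.339. The interaction of Atp6ap1 was -0.278.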

How the results depend on the processing

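Under every alternative run, 0 of the 44 members passed the adjusted threshold of 0.05 in any comparison. The threshold of 0.1 was applied to the main fit alone, where 0 members passed it. With no member called, directions rest on uncalled values, and some turned when an array was left out. The members' median turned from 0.02 to -0.03 for rapamycin over all arrays, from 0.09 to -0.06 for rapamycin against vehicle and from -0.09 to 0.042 for the interaction, each without rapamycin array 1, and from 0.08 to -0.02 for the combination against rapamycin without rapamycin array 2; the V-ATPase median with PD-0325901 turned from -0.13 to 0.02 without vehicle array 1. The number of genes past the threshold for PD-0325901 over all arrays, 0, was 22 when only the 2 groups compared were fitted. With each array left out in turn, that number ran from 0 to 8 for PD-0325901 and from 0 to 2 for rapamycin over all arrays, from 0 to 9 for PD-0325901 against vehicle, 0 to 15 for rapamycin against vehicle, 0 to 9 for the combination against vehicle and 0 to 2 for the interaction; the values above 0 came without vehicle array 2 and, for rapamycin against vehicle, also without rapamycin array 1 (4) or 2 (15). The median interaction of the members ran from -0.27 to 0.042. The cause was not tested. The 8 members higher with PD-0325901 at an unadjusted p under 0.05 were 12 after quantile normalization, 6 after median centring or with a variance trend, and 5 among genes above the median level.

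With the array number as a replicate block, 0 genes passed in any comparison, 10 members were higher and 1 lower with PD-0325901 at an unadjusted p under 0.05, and the smallest adjusted p of a member was 0.279. The numbers share no stated source, and the deviations of same-numbered arrays correlated at -0.278 to 0.183 over pairs of groups, so they were not taken to pair the samples. With 2 arrays a group, small differences could not be resolved.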

Other observations

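The remaining marker lists had small medians in both comparisons over all 8 arrays, apart from erythroid genes. Fibroblast markers had a median difference of 0.07 with PD-0325901 and 0.06 with rapamycin, Schwann cell markers 0.01 and -0.07, and melanocyte markers -0.04 and -0.01. The fibroblast score was -0.71 on vehicle array 1 and -0.77 on rapamycin array 2, against 0.44 on vehicle array 2 and 0.57 on rapamycin array 1. The 2 erythroid genes measured, Slc4a1 and Alas2, had a score of 2.57 on PD-0325901 array 2 and -0.76 to -0.01 on the other 7 arrays.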
